A study of Mus musculus with 16 samples.

Results

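The effect of the PS19 tau transgene in mice that lack p16 was read from 8 of the 16 hippocampal RNA sequencing libraries of the study. These were 4 libraries of PS19_p16KO mice, which carry the PS19 transgene and a p16 knockout, and 4 libraries of p16KO mice, which carry the knockout without the transgene. The members were taken by genotype label alone, and the knockout is shared by both groups. The other libraries were 4 of PS19 mice, which carry the transgene with p16 wildtype, and 4 of wildtype mice, and they supplied the transgene response with p16 present. All mice were female and 8 months old. Whether each sample is its own animal is not spelled out in the labels, and the p-values reflect the sample-to-sample spread alone, which may be technical.

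PS19 mice express human tau with a disease-linked mutation from the mouse prion protein promoter, which is active in neurons and other brain cells, and they develop tau aggregates, gliosis and neuron loss in the hippocampus with age. Tau binds and stabilises microtubules and is encoded in the mouse by Mapt. The protein p16, one of the products of Cdkn2a, inhibits the kinases that start the cell cycle and marks senescent cells. Microglia in this model take on a disease-associated state, with phagocytic, complement and lysosomal genes, and astrocytes become reactive.

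Gene counts ran from 18485552 to 22200555 over the 8 libraries, and 16372 genes entered the test. Hippocampal neuron markers were at high levels throughout, such as Prox1 of granule cells at 148.9 CPM ± 15.3 in PS19_p16KO and 157.8 CPM ± 9.33 in p16KO (SD, n = 4 each). CPM are counts per 1000000 after scaling of the libraries. PS19_p16KO library 3 and p16KO library 4 stood apart by choroid plexus RNA. Their Ttr level, the thyroid hormone carrier made by that tissue, was 5122 and 2978 CPM, against 7.39 to 21.9 CPM in the other PS19_p16KO libraries and 20.1 to 152.8 CPM in the other p16KO libraries. Without both of them the median log2 fold change of neuronal genes was 0.03 (main value 0.0045), of glial genes -0.01 (main value 0.04), and of the genes that respond to the transgene with p16 present 0.02 (main value 0.05).

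Cdkn2a, the targeted gene, was close to the detection limit. It had 1, 1, 0 and 0 counts in the PS19_p16KO libraries and 1, 1, 1 and 0 counts in the p16KO libraries. With p16 intact it had 8, 4, 1 and 5 counts in the PS19 libraries and 1, 1, 4 and 2 counts in the wildtype libraries. The 8 knockout libraries held 5 counts in all and the 8 libraries with p16 intact held 26 (exact two-sided permutation test on CPM, p = 0.00326, 0.0131 after adjustment over 4 comparisons). Within each transgene genotype the same test did not pass after adjustment. For PS19_p16KO against PS19 its p was 0.0286, the smallest it can give with 4 against 4 libraries, and 0.0571 after adjustment. For p16KO against wildtype its adjusted p was 0.152. Whether these counts cover the deleted part of the gene is not stated in the labels.

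What was left of the transgene effect without p16 was small. In PS19_p16KO against p16KO, 3 genes rose and 0 fell at an adjusted p under 0.05 (edgeR quasi-likelihood test with Benjamini-Hochberg adjustment over all genes tested), which is 0.0183% of the genes tested. An unadjusted p under 0.05 was reached by 598 genes, 3.65% of those tested, of which 305 were higher and 293 lower. DESeq2 called 7 genes and limma-voom called 4, each including the same 3. In PS19 against wildtype the same fit called 264 genes, 1.61% of those tested, with 255 higher (1.56%) and 9 lower (0.055%). That count was 438 without PS19 library 3 and between 124 and 166 without PS19 library 1 or 2 or wildtype library 2 or 4, while the count of 3 was 5 without PS19_p16KO library 2. Among the 14516 genes with a mean log2 CPM above 0, log2 fold changes had an SD of 0.169 in PS19_p16KO against p16KO. In PS19 against wildtype it was 0.265. The median standard error of a gene was 0.0913 in each, because 1 fit gave both comparisons the same spread per gene. It does not show that the libraries of each comparison spread equally. A change beyond 2-fold was estimated for 24 of these genes in the knockout comparison and for 159 in the other.

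Prnp, which encodes the prion protein and whose promoter is the one used in the transgene, was 1 of the 3 called genes. Its levels were 1924, 1904, 1872 and 1786 CPM in the PS19_p16KO libraries, against 1065, 1077, 1061 and 1063 CPM in the p16KO libraries. The groups did not overlap and the p16KO libraries lay within a narrow range. The log2 fold change was 0.81 ± 0.07 (SE; edgeR adjusted p = 9.05e-07), or 1.76-fold. Whether reads of the transgene were counted as Prnp was not tested, so the difference need not be one of the native gene. With p16 present the levels were 1769 CPM ± 224 in PS19 and 1023 CPM ± 36.1 in wildtype (SD, n = 4 each), a log2 fold change of 0.79 ± 0.07, and the interaction of transgene and p16 genotype was 0.02, with a 95% interval of -0.17 to 0.22. Prnp lies on chromosome 2 from 131909928 to 131938429 on the forward strand (GRCm38), and the 250 bases before its start are shown because they are the native copy of the promoter region that the transgene borrows. They span chr2:131909678-131909927 (forward strand, GRCm38.p6, RefSeq), written from the upstream end, and capitals mark matches to short promoter motifs on either strand.
Prnp: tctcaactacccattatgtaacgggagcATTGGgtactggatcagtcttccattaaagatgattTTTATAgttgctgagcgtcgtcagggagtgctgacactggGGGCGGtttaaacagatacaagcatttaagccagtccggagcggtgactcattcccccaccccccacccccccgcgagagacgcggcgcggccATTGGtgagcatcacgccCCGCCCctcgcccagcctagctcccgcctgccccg
GC boxes, searched as GGGCGG on both strands, matched 2 times, once in each orientation, and 32.7% of 32851 promoter windows hold at least 1 match. CCAAT matched 2 times, each on the reverse strand, and 33.9% of windows hold it. TATAAA matched 1 time on the reverse strand, at 186 bases before the start, and 12.4% of windows hold it. These matches describe letters only, and no binding was measured.

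Lamr1-ps1, a processed pseudogene of the laminin receptor family on chromosome 2 (131904086 to 131904959, forward strand), ends 4969 bases before Prnp starts. It had 69, 64, 66 and 55 counts in the PS19_p16KO libraries, against 0, 2, 2 and 2 counts in the p16KO libraries. It was near absent without the transgene and present in every library with it. The ratio of summed counts was 44.2 (exact 95% interval 20.1 to 121.7, counting error only), and the fitted log2 fold change was 5.35 ± 0.37 (edgeR adjusted p = 8.38e-08). With p16 present it had 220 counts over the PS19 libraries and 3 over the wildtype libraries, a ratio of 75.6 (25.5 to 369.6). Its nearest parent, Rpsa, had 302.5 CPM ± 17.3 in PS19_p16KO and 300.9 CPM ± 26.9 in p16KO (SD, n = 4 each). The pseudogene and Rpsa were identical at 645 of 900 aligned positions (71.7%), and the labels do not state how reads with several matches were counted. Whether reads of the transgene were counted as Lamr1-ps1 was not tested. No other tested gene within 1000000 bases of Prnp was called. Its close neighbour Rassf2 had a log2 fold change of -0.02 and 5330413P13Rik one of 0.08.

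4930590L14Rik, a long intergenic non-coding RNA on chromosome 3 (140951876 to 140953247), was the third called gene and had low counts. It had 17, 25, 8 and 17 counts in the PS19_p16KO libraries, against 1, 0, 0 and 1 counts in the p16KO libraries. The ratio of summed counts was 35.0 (exact 95% interval 9.32 to 295.1, counting error only), with an edgeR adjusted p of 0.00872. Over the libraries with p16 present it had 58 counts in PS19 and 0 in wildtype, at least 19.9-fold higher against a floor of 3 counts over the wildtype group. The call rests on few counts: it was lost without p16KO library 2 (adjusted p = 0.0615), without p16KO library 3 (adjusted p = 0.0639) and when only the 8 libraries were fitted, and a filter of CPM above 1 in 4 libraries removed the gene.

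**Figure D1:**
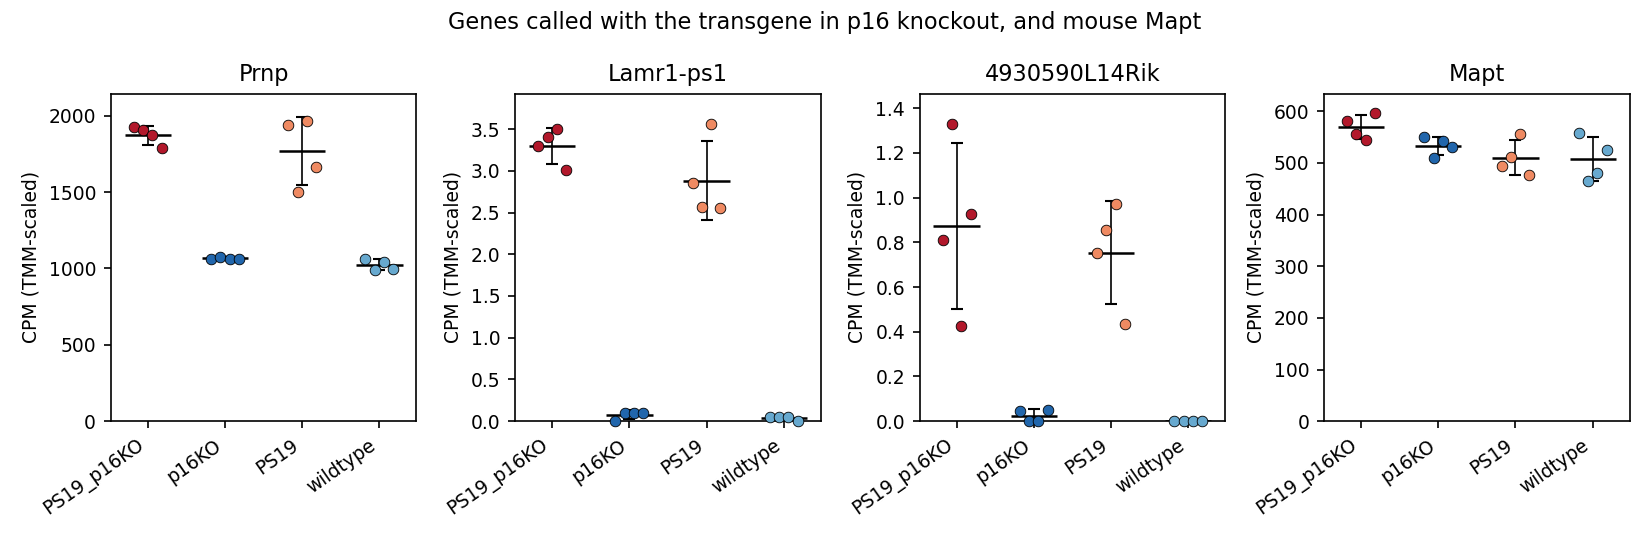
CPM of the 3 called genes and of mouse Mapt in each library, with the group mean (bar) and SD (whiskers, n = 4 per group). The PS19_p16KO libraries sit above every p16KO library for Prnp, Lamr1-ps1 and 4930590L14Rik, close to where the PS19 libraries sit, while Mapt overlaps between the groups.

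Mapt, the mouse tau gene, was at 580, 556, 545 and 598 CPM in the PS19_p16KO libraries, against 549, 510, 542 and 532 CPM in the p16KO libraries. The groups overlapped, and the log2 fold change was 0.10 ± 0.06 (edgeR adjusted p = 0.999). Human tau was not analysed here, and the labels do not state how its reads were treated.

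Several of the genes with the smallest p-values lay on chromosome 3. Of the 12 smallest, 5 (41.7%) were on this chromosome, 4930590L14Rik included, and 7 of the 25, 8 of the 50 and 13 of the 100 smallest were. Chromosome 3 holds 842 (5.14%) of the genes tested. Arsj, an arylsulfatase family member at 126363684 to 126440375, had 3.24, 4.36, 3.55 and 4.15 CPM in the PS19_p16KO libraries, against 6.43, 5.48, 6.21 and 6.25 CPM in the p16KO libraries. Its groups did not overlap and its log2 fold change was -0.67 ± 0.14 (edgeR adjusted p = 0.181), with -0.42 in PS19 against wildtype. Capza1, an actin capping protein subunit at 104822779 to 104864505, had a log2 fold change of -0.59 ± 0.12 in PS19_p16KO against p16KO (edgeR adjusted p = 0.181) and of 0.21 in PS19 against wildtype. Unc5c, a netrin receptor that lies 511969 bases from 4930590L14Rik, had 54.9 CPM ± 9.38 in PS19_p16KO and 72.3 CPM ± 4.78 in p16KO (SD, n = 4 each), a log2 fold change of -0.40, with -0.34 in PS19 against wildtype. Mttp, a lipid transfer protein of lipoprotein assembly, had a log2 fold change of 0.29 in PS19_p16KO against p16KO and of 0.08 in PS19 against wildtype. Of these, Arsj and Capza1 were called by DESeq2, and Capza1 and Unc5c in the edgeR fit without PS19_p16KO library 2. Chromosome 3 was singled out after the values were seen, and where the transgene sits in the genome was not examined.

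Other genes with small p-values and no overlap between the libraries were not called and spread over many functions. Higher in PS19_p16KO were Scand1 (0.38), Fam98c (0.28), the zinc finger gene Zfp771 (0.30), the mitochondrial ribosome gene Mrpl57 (0.25), Tifa (0.51), Trim11 (0.28) and C1qtnf4 (0.25), all as log2 fold changes. Lower were Fubp1 (-0.23), Ccdc89 (-1.05), the myosin light chain kinase Mylk (-0.38), Plekhg1 (-0.31), Mrvi1 (-0.69), which acts in smooth muscle relaxation, the Wnt pathway scaffold Apc (-0.27) and Zbtb26 (-0.32). Their adjusted p-values were all 0.999, except 0.802 for Scand1. Over all genes, 459 (2.8%) had no overlap between the libraries, 275 (1.68%) of them higher and 184 (1.12%) lower.

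The 264 genes called in PS19 against wildtype were followed into PS19_p16KO against p16KO. These comparisons share no library, but the fit that chose the genes took its spread from all 16 libraries. The choice was therefore not independent of the PS19_p16KO and p16KO libraries. Of these genes, 164 (62.1%) had the same sign, against 51.8% positive log2 fold changes over all genes tested. Signed by the direction in PS19, their median log2 fold change was 0.05, against 0.92 in PS19 against wildtype. The genes were chosen on the PS19 value, which raises it. For the 70 genes called when only PS19 and wildtype were fitted, the signed median in PS19_p16KO against p16KO was 0.12. For 256 of the 264 genes the 95% interval in PS19_p16KO against p16KO excluded the estimate from PS19 against wildtype. That count takes the PS19 estimate as fixed, although it has an error of its own and was raised by the choice. The interaction, which carries the error of both comparisons, was called for 1 of the 264 genes. Only Prnp, Lamr1-ps1 and 4930590L14Rik were called in both comparisons, and 13 genes including these had an unadjusted p under 0.05 and the same sign. In the opposite direction there was Heatr5a, with a log2 fold change of -0.25 in PS19_p16KO against p16KO and of 0.41 in PS19 against wildtype. A fold above 1.5 in the same direction was kept by 9 of the 264 genes, and 2, H2-Ob at -0.77 and Ticam2 at -0.68, were beyond it in the opposite direction.

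What was left was small at every size of the response with p16 present, and nearest 0 for the smallest responses. The 63 genes with a log2 fold change of up to 0.5 in PS19 against wildtype had a median of 1.1e-05 in PS19_p16KO against p16KO, the 76 genes between 0.5 and 1 had 0.06, the 92 genes between 1 and 2 had 0.10, and the 24 genes above 2 had 0.10. In the same order, 32, 47, 63 and 15 of these genes were positive. By library, the level of the 255 genes higher in PS19, taken as the median over genes of log2 CPM relative to the mean of all 16 libraries, was -0.04, -0.15, -0.03 and -0.13 in PS19_p16KO and -0.07, -0.12, -0.18 and -0.16 in p16KO. With p16 present it was 0.95, 0.73, 0.10 and 0.45 in PS19 and -0.23, -0.30, -0.24 and -0.33 in wildtype. The PS19_p16KO and p16KO libraries overlapped, and both lay between the wildtype and the PS19 libraries. These genes were chosen as higher in PS19 than in wildtype in the same libraries. The choice itself favours PS19 lying highest and wildtype lowest, so no p16 effect can be read from this order.

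**Figure D2:**
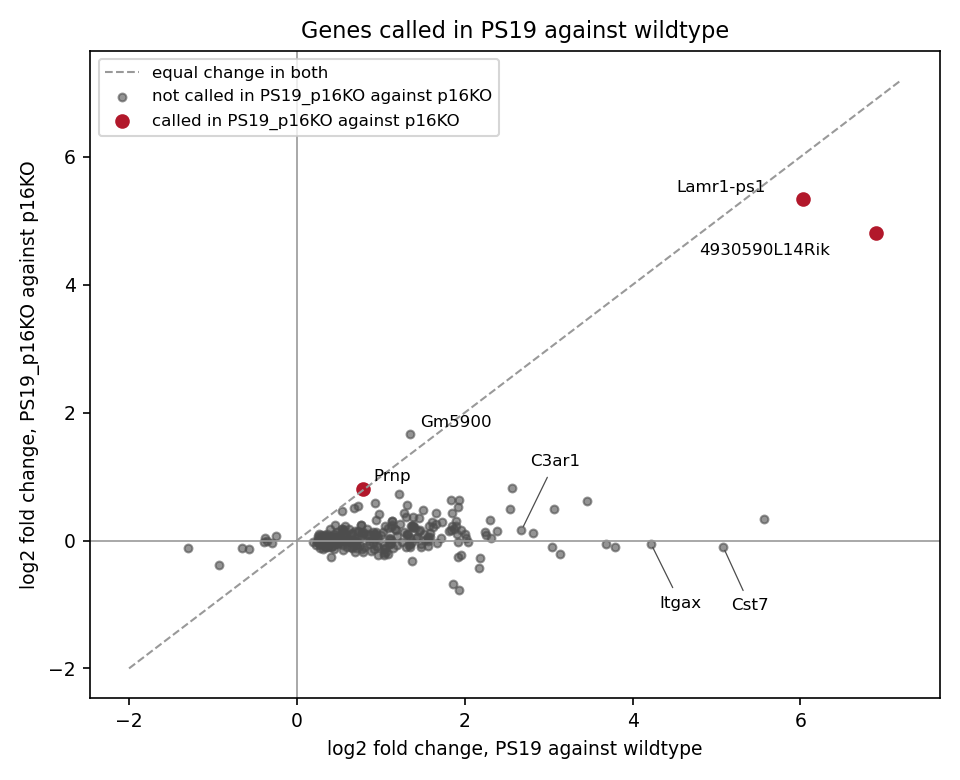
Each point is 1 of the 264 genes called in PS19 against wildtype, with its log2 fold change there on the x axis and in PS19_p16KO against p16KO on the y axis. The 3 genes called in both comparisons and Gm5900 have positive values on both axes, whereas C3ar1, Itgax and Cst7 lie near 0 on the y axis.

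Among the response genes with an unadjusted p under 0.05 and the same sign, Gm5900, a processed pseudogene on chromosome 7, came closest to a call. It had 1.10, 1.22, 1.43 and 1.53 CPM in the PS19_p16KO libraries, against 0.495, 0.359, 0.308 and 0.469 CPM in the p16KO libraries, with no overlap and a log2 fold change of 1.67 ± 0.29 (edgeR adjusted p = 0.0636; 1.35 in PS19 against wildtype). DESeq2 and limma-voom called it. Tifa and Alpk1, neighbours on chromosome 3 that act together in a bacterial sugar sensing pathway towards NF-kB, had log2 fold changes of 0.51 ± 0.14 and 0.55 ± 0.18 in PS19_p16KO against p16KO, against 0.68 and 0.73 in PS19 against wildtype. Tifa levels were 9.30, 9.51, 12.03 and 11.9 CPM in the PS19_p16KO libraries and 7.33, 7.84, 8.62 and 6.25 CPM in the p16KO libraries, again without overlap. 1110002E22Rik, also on chromosome 3, was lower with the transgene at -0.38 in PS19_p16KO against p16KO and at -0.93 in PS19 against wildtype. Ppp1r14a, an inhibitor of myosin phosphatase, was at 0.46 and 0.54 in the same order of comparisons, the adenylate cyclase gene Adcy7 at 0.73 and 1.22, and Renbp at 0.58 and 0.92. These genes other than Tifa were named after their values were seen, and none passed the adjusted threshold in PS19_p16KO against p16KO.

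Disease-associated microglial genes, of which 14 were called in PS19 against wildtype, gave no call when p16 was missing. Itgax, an integrin of activated microglia, had 1.19, 0.266, 1.75 and 0.655 CPM in the PS19_p16KO libraries, against 1.26, 0.768, 0.564 and 1.41 CPM in the p16KO libraries. The groups overlapped fully, whereas PS19 averaged 16.8 CPM ± 10.2 and wildtype 0.896 CPM ± 0.174 (SD, n = 4 each). Clec7a, a pattern receptor of the same state, averaged 1.43 CPM ± 0.571 in PS19_p16KO and 1.53 CPM ± 0.149 in p16KO, against 15.9 CPM ± 8.74 in PS19 and 1.14 CPM ± 0.289 in wildtype. Over the 23 tested genes of this list the median log2 fold change was 0.06 in PS19_p16KO against p16KO, with 14 positive and 0 called, and 1.04 in PS19 against wildtype, with 23 positive and 14 called. Leaving out both choroid-rich libraries, the first median was -0.06.

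Rises of PS19 were followed in 12 genes, the largest among those called that also had an average log2 CPM over 0, no overlap in PS19 against wildtype and a standard gene name. None was called without p16. Their log2 fold changes in PS19_p16KO against p16KO were -0.05 for Itgax, 0.50 for Ccl6, -0.10 for Ccl9, 0.11 for Cd52, 0.16 for C3ar1, 0.49 for Lag3, 0.08 for Cd74, 0.14 for Siglecf, 0.04 for Lat2, 0.11 for Endou, 0.17 for Mpeg1 and -0.25 for Cd84, with standard errors from 0.22 (C3ar1) to 0.65 (Itgax) and adjusted p-values of 0.999. In PS19 against wildtype the same genes were at 1.92 (Cd84) to 4.22 (Itgax). C3ar1, the receptor of complement fragment C3a, had 1.72, 1.86, 2.70 and 2.51 CPM in the PS19_p16KO libraries and 2.02, 1.84, 1.74 and 2.24 CPM in the p16KO libraries, which overlapped. PS19 averaged 7.30 CPM ± 2.10 and wildtype 1.14 CPM ± 0.161 for this gene. Its interaction of -2.52 ± 0.32 (edgeR adjusted p = 0.00248) was the single one called among all genes, 0.00611% of those tested, while 890 (5.44%) had an unadjusted p under 0.05. That count is unstable: it was 0 with limma-voom, 86 with DESeq2 and 160 without PS19 library 3, the PS19 library with the lowest response.

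Of the 9 genes that fell in PS19, 1110002E22Rik at -0.38 is given above, and the other 8 had smaller differences without p16. Of these, Crybb1, a crystallin found in microglia, had 1.67, 2.34, 2.33 and 2.13 CPM in the PS19_p16KO libraries and 2.43, 1.90, 2.98 and 1.82 CPM in the p16KO libraries, with a log2 fold change of -0.11 against -1.30 in PS19 against wildtype. Fam198b (-0.12), the prokineticin receptor gene Prokr2 (-0.13), the sterol synthesis genes Msmo1 (-0.02) and Fdps (0.03), the neuropeptide Y receptor gene Npy1r (0.00), Slc26a4 (-0.03) and Sh3bp4 (0.07) lay within 0.13 of 0 in PS19_p16KO against p16KO, and between -0.65 and -0.25 in PS19 against wildtype. Sterol synthesis genes as a list were at a median of 0.06 on the log2 scale, with 14 of 20 positive, against -0.22 with 0 of 20 positive in PS19 against wildtype.

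In all 11 glial lists together 0 of 173 genes were called, and 101 were positive with a median of 0.04. General microglial and macrophage genes had a median of 0.07 on the log2 scale, with 9 of 14 positive, against 1.35 in PS19 against wildtype, where 12 were called. Csf1r, the growth factor receptor that microglia need to survive, had 110.2, 94.7, 99.3 and 92.0 CPM in the PS19_p16KO libraries, against 107.9, 104.8, 97.1 and 86.2 CPM in the p16KO libraries. Aif1, the gene of the microglial marker Iba1, had a log2 fold change of 0.11 ± 0.19. In homeostatic microglia, P2ry12, a purine receptor, was at 32.7 CPM ± 1.56 in PS19_p16KO and 32.2 CPM ± 1.99 in p16KO, and Tmem119 at 23.02 CPM ± 1.34 and 24.2 CPM ± 1.51 (SD, n = 4 each). The list median was -0.05, with 5 of 14 positive.

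Complement genes had a median of 0.04, with 9 of 16 positive, against 0.55 in PS19 against wildtype. C1qa, a chain of the first complement component, had 44.4, 39.8, 45.9 and 44.3 CPM in the PS19_p16KO libraries, against 48.1, 45.4, 41.7 and 32.9 CPM in the p16KO libraries, whereas PS19 averaged 108.9 CPM ± 49.5 and wildtype 36.2 CPM ± 3.93. C3 had a log2 fold change of -0.19 ± 0.37. Without PS19_p16KO library 3 the complement median was -0.22, and without both choroid-rich libraries it was -0.14. Lysosomal genes had a median of 0.05, with 19 of 22 positive, against 0.57 with 22 positive and 12 called in PS19 against wildtype, and Lamp1, a lysosomal membrane protein, was at 0.04 ± 0.06.

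Interferon response genes had the largest median of the glial lists, 0.20 with 18 of 25 positive, against 0.80 in PS19 against wildtype. Their levels were 0.32, -0.52, 0.08 and -0.52 in the PS19_p16KO libraries and -0.10, -0.32, -0.32 and -0.34 in the p16KO libraries, so that 2 of the PS19_p16KO libraries were above and 2 below all of p16KO. Without PS19_p16KO library 1 the median was -0.01. Ifit1 had 3.15, 0.957, 1.70 and 1.04 CPM in the PS19_p16KO libraries and 1.53, 1.90, 1.18 and 0.729 CPM in the p16KO libraries, Irf7 had a log2 fold change of 0.58 ± 0.33, and the antiviral gene Rsad2 one of 0.66 ± 0.27 (edgeR adjusted p = 0.999). Antigen presentation genes had a median of 0.08, against 0.86 in PS19 against wildtype, and B2m, the light chain of MHC class I, was at 0.11 ± 0.19.

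Reactive astrocyte genes had a median of -0.04, with 4 of 13 positive, against 0.84 with 12 positive in PS19 against wildtype. Gfap, the intermediate filament of reactive astrocytes, had 606.7, 651.1, 625.9 and 595.7 CPM in the PS19_p16KO libraries, against 684.2, 525.3, 515.5 and 475.7 CPM in the p16KO libraries, with overlap and a log2 fold change of 0.17 ± 0.26. PS19 averaged 1875 CPM ± 784 and wildtype 524 CPM ± 69.9. Vim was at -0.03 ± 0.23 and Cp, the copper-carrying ferroxidase, at -0.56 ± 0.26 (edgeR adjusted p = 0.999). Among astrocyte identity genes, 4 of 14 were positive with a median of -0.07, and Aqp4 of the astrocyte endfeet was at -0.28 ± 0.15 without overlap. Myelin genes had a median of 0.06, with 11 of 16 positive, Mbp at 0.17 ± 0.12 and Opalin at 0.29 ± 0.11 (edgeR adjusted p = 0.999). Olig1, a transcription factor of the oligodendrocyte lineage, was at 0.15 ± 0.07 without overlap, in a list of precursor genes whose median was 0.02.

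**Figure D3:**
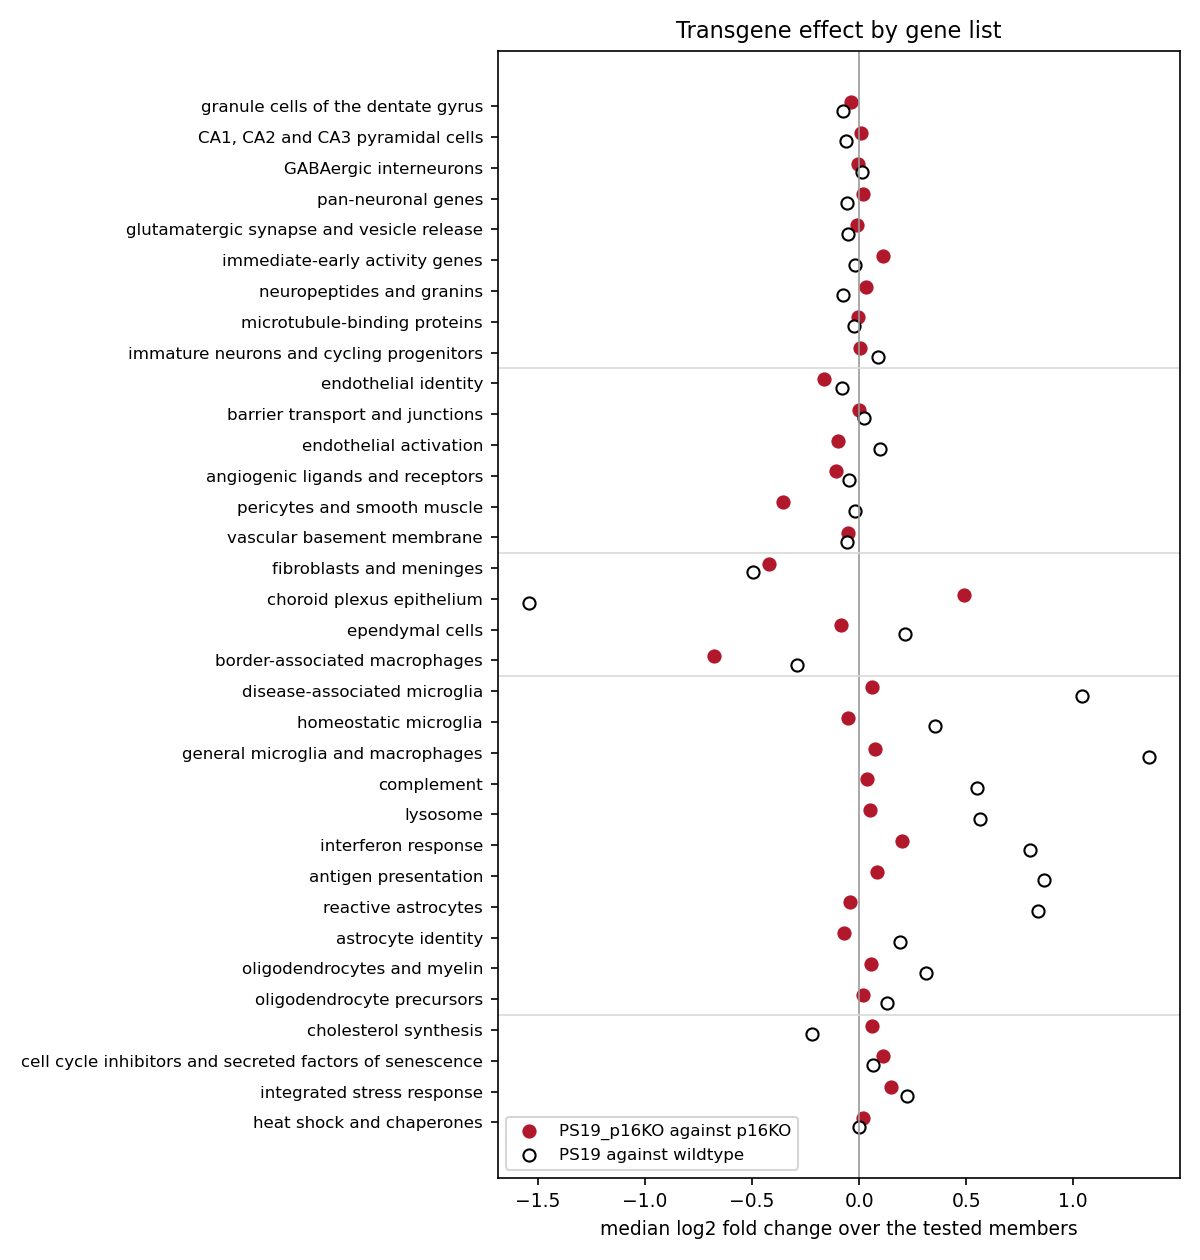
Median log2 fold change over the tested genes of each list, for PS19_p16KO against p16KO (filled) and PS19 against wildtype (open), grouped as neuronal, vascular, border, glial and other lists. Glial lists lie between -0.07 and 0.20 in PS19_p16KO against p16KO and between 0.13 and 1.35 in PS19 against wildtype, neuronal lists lie between -0.04 and 0.11 and between -0.08 and 0.09, and fibroblast and border macrophage lists are below 0 in both, while the pericyte list is at -0.35 and -0.02 in the same order.

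Neuronal genes differed little with the transgene when p16 was missing. Of 164 genes in 9 lists, 0 were called, 3 (1.83%) had an unadjusted p under 0.05, 85 were positive, and the median log2 fold change was 0.0045. For 162 of them the estimate was within 0.5 of 0. In PS19 against wildtype 48 of the 164 were positive, with a median of -0.05. Their median standard error was 0.0873. In bulk tissue, fewer cells of a type and less RNA per cell cannot be told apart.

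By region and transmitter, granule cell genes of the dentate gyrus had a median of -0.04, with 5 of 15 positive, pyramidal cell genes of CA1 to CA3 one of 0.01, and GABAergic interneuron genes one of -0.0036. Prox1, the transcription factor of granule cells, was at -0.08 ± 0.08, and C1ql2, a synaptic organiser of their mossy fibres, was at 0.16 ± 0.08, with 164.6, 159.9, 168.3 and 162.8 CPM in the PS19_p16KO libraries, against 152.5, 142.7, 139.2 and 152.8 CPM in the p16KO libraries. Wfs1 of CA1 was at -0.32 ± 0.17 and Fibcd1 at 0.01 ± 0.10. Gad1 and Gad2, the enzymes that make GABA, were at -0.02 ± 0.05 and -0.08 ± 0.07.

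All 35 genes of the glutamatergic synapse and of vesicle release lay within 0.5 of 0, with a median of -0.01 and 15 positive, against -0.05 and 1 positive in PS19 against wildtype. Slc17a7, the vesicular glutamate transporter, had 1893.6, 1988.5, 1778 and 1808 CPM in the PS19_p16KO libraries, against 1781, 1774, 1819 and 1742 CPM in the p16KO libraries, and Dlg4, the scaffold PSD-95, had a log2 fold change of -0.01 ± 0.05. The 3 genes with an unadjusted p under 0.05 were Map2, a microtubule protein of dendrites, at -0.18 ± 0.07, Rbfox3, the gene of the neuronal nuclear antigen NeuN, at 0.14 ± 0.06, and the kainate receptor gene Grik4 of CA3 at 0.18 ± 0.08, each with an edgeR adjusted p of 0.999. Rbfox3 levels did not overlap, with 330.4, 313.8, 320.6 and 346.8 CPM in the PS19_p16KO libraries and 291.0, 279.9, 311.8 and 306.2 CPM in the p16KO libraries. Microtubule-binding proteins had a median of -0.01, and Map1b of growing axons was at -0.05 ± 0.09.

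Activity-dependent genes were led by a single library. Immediate-early genes had a median of 0.11, with 15 of 19 positive, and their levels were -0.21, -0.05, -0.17 and 0.68 in the PS19_p16KO libraries and -0.10, -0.30, 0.20 and 0.03 in the p16KO libraries. Fos was at 14.6, 14.8, 13.5 and 47.8 CPM in the PS19_p16KO libraries and at 15.93, 10.04, 23.04 and 20.003 CPM in the p16KO libraries, and Arc was likewise highest in PS19_p16KO library 4 at 250.8 CPM. Without that library the list median was -0.14. Neuropeptide and granin genes had a median of 0.03, with the enkephalin precursor gene Penk at 0.08 ± 0.11. Immature neuron and progenitor genes had a median of 0.0044, with Dcx of migrating neuroblasts at -0.03 ± 0.12, the proliferation marker Mki67 at 0.48 ± 0.26, and the intermediate progenitor gene Eomes at -1.46 ± 0.93.

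Vascular genes were on the whole lower in PS19_p16KO than in p16KO, without any single call. Of 104 genes in 6 lists, 28 (26.9%) were positive, against 51.8% of all genes, with a median log2 fold change of -0.10 and 0 called. An unadjusted p under 0.05 was reached by 13 (12.5%), all of them lower, against 293 lower genes (1.79%) over all genes tested. In PS19 against wildtype 49 of the same 104 genes were positive, with a median of -0.01. There 2 were called, 1 in the barrier list and 1 in the endothelial activation list. Of those with an unadjusted p under 0.05, 10 were higher and 4 lower. The median in PS19_p16KO against p16KO was -0.15 to -0.07 over the alternatives tried, always negative. The 13 genes became 7 without p16KO library 2, 7 without PS19_p16KO library 4 and 8 without p16KO library 3. Leaving out both choroid-rich libraries, the median was -0.14. Members of these lists share cell types and are not independent of each other. By mean level, p16KO was the highest of the 4 groups in every vascular list except endothelial activation. Endothelial identity was at 0.13 in p16KO, -0.01 in PS19_p16KO, -0.08 in PS19 and -0.03 in wildtype. Pericyte genes were at 0.25, -0.11, -0.05 and -0.05 in the same order. Basement membrane genes were at 0.05, -0.03, -0.02 and -0.08, and barrier genes at 0.03, -0.0021, 0.0012 and -0.04. Endothelial activation genes were at 0.05 in both p16KO and PS19. Why p16KO was high was not tested.

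Pericyte and smooth muscle genes had the lowest median of the vascular lists. It was -0.35, with 2 of 19 positive and 6 with an unadjusted p under 0.05, and their levels were -0.04, -0.03, -0.15 and -0.22 in the PS19_p16KO libraries, against 0.07, 0.65, 0.18 and 0.11 in the p16KO libraries. These levels did not overlap, and the PS19 libraries (-0.15 to 0.13) and wildtype libraries (-0.32 to 0.33) spread over both. Myh11, the myosin heavy chain of smooth muscle, had 7.63, 4.57, 5.04 and 5.13 CPM in the PS19_p16KO libraries, against 7.06, 19.9, 9.08 and 7.87 CPM in the p16KO libraries, with a log2 fold change of -0.97 ± 0.27 (edgeR adjusted p = 0.999). PS19_p16KO library 1 lay within the p16KO range, and p16KO library 2 was far above the other p16KO libraries. Acta2, smooth muscle actin, had 7.97, 7.49, 6.47 and 6.99 CPM in the PS19_p16KO libraries and 9.85, 24.6, 12.3 and 7.61 CPM in the p16KO libraries, a log2 fold change of -0.91 ± 0.31. Tagln, an actin-binding protein of smooth muscle, was at -0.88 ± 0.33 and Anpep, a pericyte peptidase, at -0.77 ± 0.30, both again highest in p16KO library 2. Pdgfrb, the growth factor receptor that recruits pericytes, had 16.8, 18.8, 14.6 and 17.7 CPM in the PS19_p16KO libraries and 17.1, 19.0, 18.3 and 17.0 CPM in the p16KO libraries, a log2 fold change of -0.07 ± 0.09. Without p16KO library 2 the list median was -0.16.

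**Figure D4:**
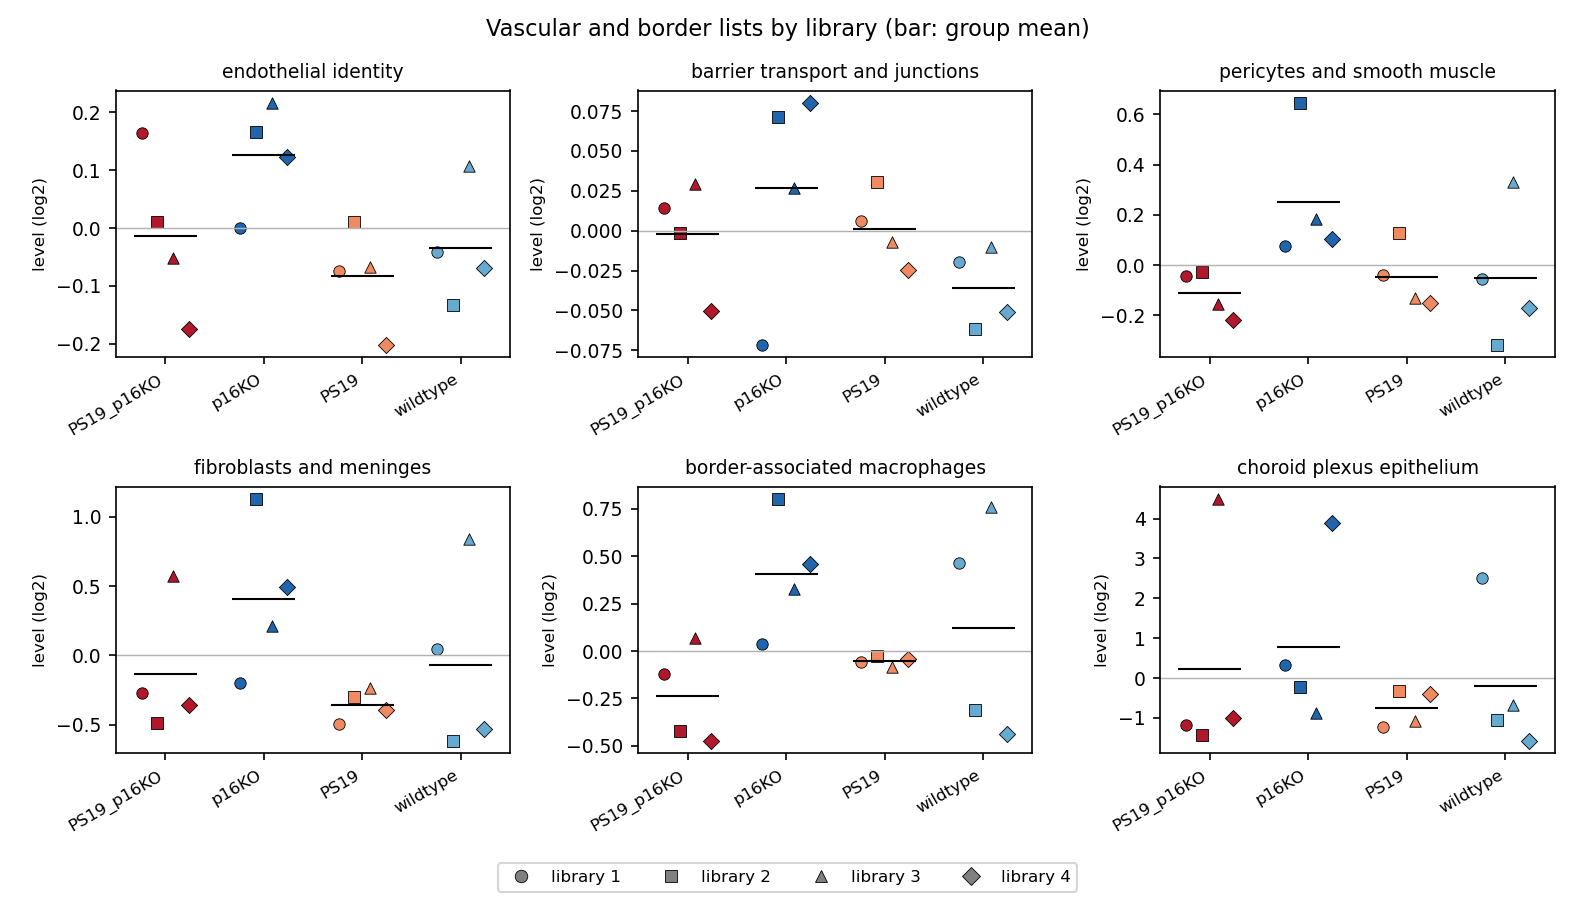
Level of 6 vascular and border lists in each library, as the median over genes of log2 CPM relative to the mean of all 16 libraries, with the group mean as a bar. Pericyte and smooth muscle levels are below 0 in all 4 PS19_p16KO libraries and above 0 in all 4 p16KO libraries, and choroid plexus levels are high in PS19_p16KO library 3 and p16KO library 4.

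Endothelial identity genes had a median of -0.16, with 4 of 20 positive. Pecam1, an adhesion molecule of endothelial junctions, had 17.65, 13.98, 14.95 and 12.39 CPM in the PS19_p16KO libraries, against 15.2, 19.7, 17.7 and 17.3 CPM in the p16KO libraries, with overlap and a log2 fold change of -0.24 ± 0.10 (edgeR adjusted p = 0.999). Cdh5, the cadherin of these junctions, was at -0.23 ± 0.11, while the tight junction gene Cldn5 was at 0.05 ± 0.13 and Egfl7 at 0.17 ± 0.09. The list levels were 0.16, 0.01, -0.05 and -0.17 in the PS19_p16KO libraries and 0.00, 0.17, 0.22 and 0.12 in the p16KO libraries, which overlap. Without PS19_p16KO library 4 the median was -0.09.

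Angiogenic ligands and receptors had 2 of 24 positive and a median of -0.11. Flt1, a VEGF receptor, had 57.0, 54.1, 48.2 and 46.6 CPM in the PS19_p16KO libraries, against 61.1, 54.8, 65.6 and 56.4 CPM in the p16KO libraries, a log2 fold change of -0.21 ± 0.08 (edgeR adjusted p = 0.999). The other VEGF receptor Kdr was at -0.14 ± 0.10 and the ligand Vegfa at -0.02 ± 0.10. Angpt1, a pericyte ligand that stabilises vessels, was at -0.32 ± 0.14 in PS19_p16KO against p16KO and at 0.51 ± 0.14 in PS19 against wildtype (adjusted p = 0.0705), and its interaction of -0.83 had an adjusted p of 0.15. Reck, a membrane regulator of vessel formation, was at -0.33 ± 0.13.

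Genes of barrier transport and junctions had a median of -0.0023, with 11 of 23 positive. Slc2a1, the glucose transporter of the blood-brain barrier, was at 99.2 CPM ± 1.73 in PS19_p16KO and 99.4 CPM ± 7.06 in p16KO (SD, n = 4 each), and its 95% interval of -0.18 to 0.18 bounds the log2 change. Mfsd2a, the lipid transporter of barrier endothelium, was at -0.20 ± 0.11, and the amino acid transporter gene Slc38a5 at -0.45 ± 0.21. Endothelial activation genes, of which 10 of 14 were tested, had a median of -0.10, which was -0.30 without PS19_p16KO library 3 and 0.02 with the CPM filter. Vcam1 was at 0.02 ± 0.26, Icam1, an adhesion molecule of inflamed vessels, at -0.13 ± 0.23 against 0.89 ± 0.23 in PS19 against wildtype (adjusted p = 0.0529), and the vasoconstrictor gene Edn1 at -0.63 ± 0.33. In the vascular basement membrane the median was -0.05, with Col4a1 at -0.17 ± 0.09, Lama4 at 0.04 ± 0.23, Lamc1 at -0.20 ± 0.09 without overlap, and Nid1 at -0.52 ± 0.24 and highest in p16KO library 2. Without p16KO library 1 this median was -0.18.

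Of 48 genes of the brain borders in 4 lists, 0 were called and 20 were positive. Their median log2 fold change was -0.10, and it changed sign under 3 of 28 alternatives. The part of border cells in the vascular values was not tested. Fibroblast and meningeal genes had a median of -0.42, with 2 of 16 positive, and levels of -0.27, -0.48, 0.58 and -0.36 in the PS19_p16KO libraries, against -0.20, 1.13, 0.22 and 0.49 in the p16KO libraries, the highest again p16KO library 2. Col1a1, fibrillar collagen, was at -0.80 ± 0.46, and the proteoglycan gene Dcn at 0.07 ± 0.24. Without PS19_p16KO library 3 the median was -0.97, and without p16KO library 2 it was -0.26. Border-associated macrophage genes were negative for all 6 that were tested of 10, with a median of -0.68 and levels of -0.12, -0.42, 0.07 and -0.47 in the PS19_p16KO libraries, against 0.04, 0.80, 0.33 and 0.46 in the p16KO libraries. Cd163, their haemoglobin scavenger receptor, had 1.29, 0.850, 1.70 and 0.928 CPM in the PS19_p16KO libraries, against 1.71, 2.82, 2.05 and 1.77 CPM in the p16KO libraries. The groups came close without overlapping, and the log2 fold change was -0.80 ± 0.27 (edgeR adjusted p = 0.999). The mannose receptor gene Mrc1 was at -0.94 ± 0.45 and Stab1 at -0.31 ± 0.17. Choroid plexus genes had a median of 0.49 with levels of -1.16, -1.42, 4.50 and -1.01 in the PS19_p16KO libraries and 0.32, -0.22, -0.87 and 3.89 in the p16KO libraries, so this median follows 1 library in each group, and it was -3.61 without PS19_p16KO library 3 and 2.89 without p16KO library 4. In PS19 against wildtype the medians were -0.49 for fibroblast genes, -0.29 for border macrophage genes, with 0 of 6 positive, and -1.54 for choroid plexus genes. Choroid plexus levels were 2.51, -1.04, -0.67 and -1.58 in the wildtype libraries, so that median follows wildtype library 1. Fibroblast levels ran from -0.62 to 0.84 in wildtype, on both sides of PS19 (-0.49 to -0.23). Border macrophage levels likewise ran from -0.43 to 0.76 in wildtype and from -0.09 to -0.02 in PS19. Folr1 of the choroid plexus was highest in PS19_p16KO library 3 and p16KO library 4, at 45.9 and 27.6 CPM. Foxj1 of ciliated ependymal cells was at -0.07 ± 0.38.

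**Figure D5:**
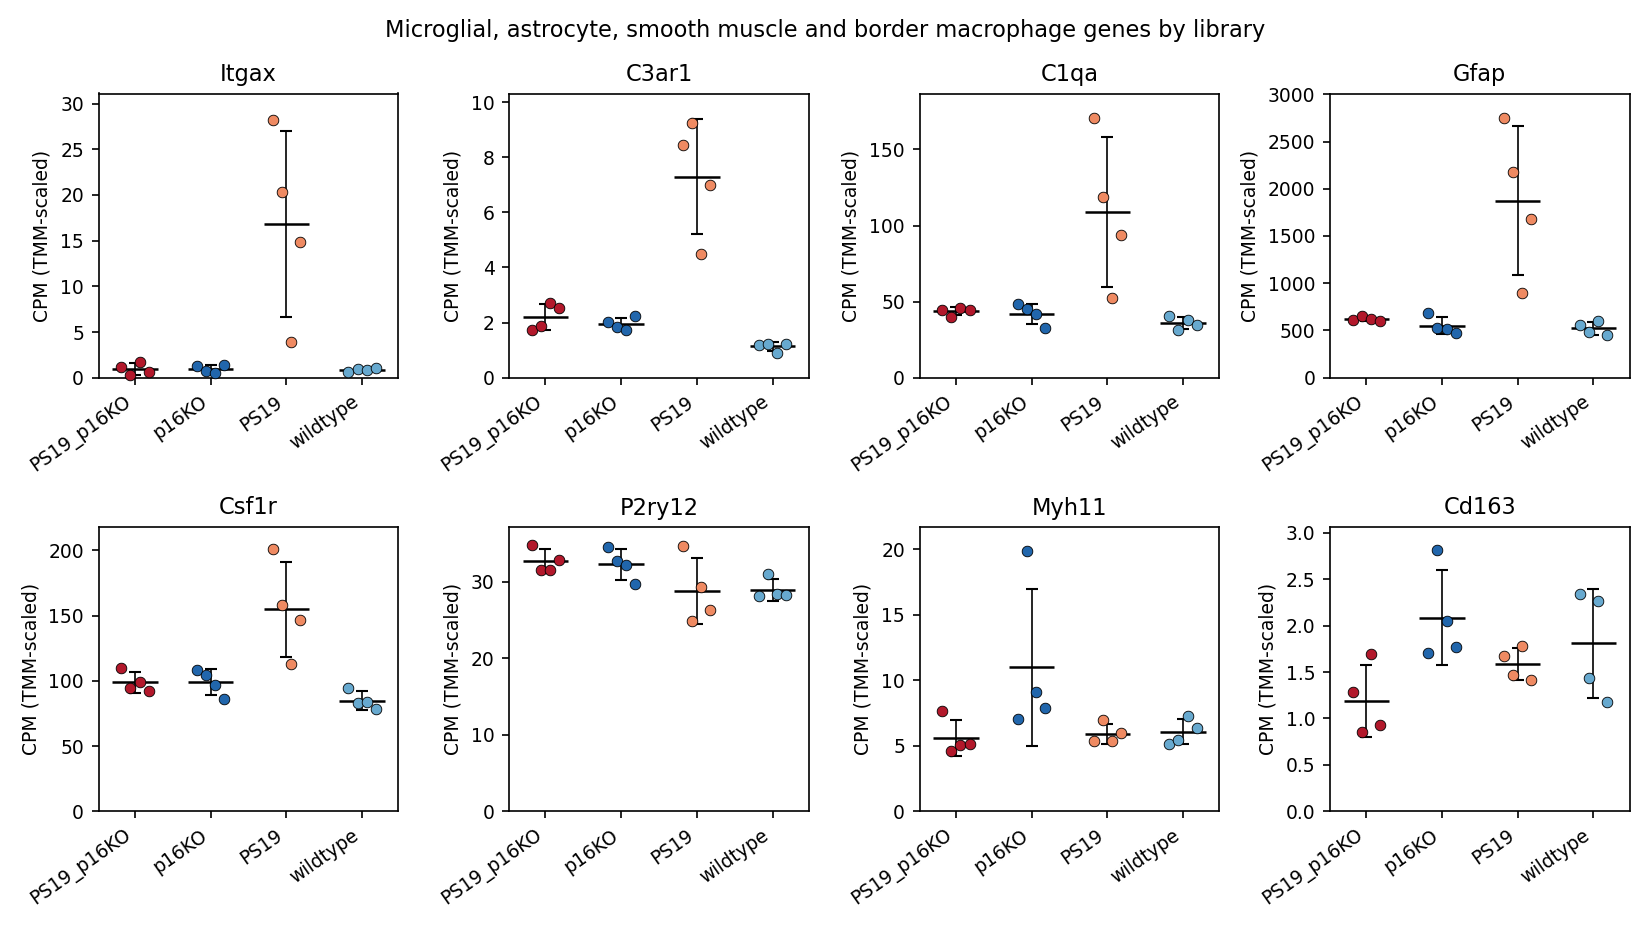
CPM of microglial (Itgax, C3ar1, C1qa, Csf1r, P2ry12), astrocyte (Gfap), smooth muscle (Myh11) and border macrophage (Cd163) genes in each library, with group mean and SD (n = 4 per group). Itgax, C3ar1, C1qa and Gfap are high in PS19 and overlap between PS19_p16KO and p16KO, whereas p16KO library 2 is the highest point for Myh11 and Cd163.

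Genes of senescence and stress gave 0 calls, with list medians from 0.02 to 0.15. Cell cycle inhibitors and secreted factors of senescence, of which 22 of 30 were tested, had a median of 0.11, with 16 positive, against 0.07 in PS19 against wildtype, and a median of 0.02 without PS19_p16KO library 3. Cdkn1a, which encodes the inhibitor p21, had 5.87, 4.68, 8.32 and 8.68 CPM in the PS19_p16KO libraries, against 6.21, 6.50, 5.44 and 6.56 CPM in the p16KO libraries, a log2 fold change of 0.15 ± 0.21, whereas PS19 averaged 11.4 CPM ± 3.47 and wildtype 6.70 CPM ± 0.983. Cdkn2b, the neighbour of Cdkn2a that encodes p15, was at 0.54 ± 0.35, and Cdkn2d, another inhibitor of the same family, at 0.17 ± 0.06 (edgeR adjusted p = 0.999). The integrated stress response had a median of 0.15, with 12 of 16 positive, and 0.22 in PS19 against wildtype. Its levels were -0.03, -0.16, -0.06 and 0.27 in the PS19_p16KO libraries and -0.06, -0.08, -0.12 and -0.12 in the p16KO libraries, and without PS19_p16KO library 4 the median was 0.04. Cebpb, a transcription factor of that list, had 21.5, 16.3, 20.6 and 24.1 CPM in the PS19_p16KO libraries, against 14.4, 16.3, 13.8 and 14.6 CPM in the p16KO libraries, a log2 fold change of 0.48 ± 0.14 (edgeR adjusted p = 0.999), and Atf4 was at 0.30 ± 0.20 with its highest level in PS19_p16KO library 4. Chaperone genes had a median of 0.02, with the constitutive chaperone gene Hspa8 at -0.08 ± 0.07.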

How the data were processed

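Hippocampal RNA of 16 samples from female mice was sequenced. The authors deposited raw read counts per gene, unscaled, with 92 rows for spike-in RNA (0.574% to 1.06% of counts) that were left out here. The submitters' processing notes name Trimmomatic 0.36, STAR 2.5.2b, featureCounts, Subread 1.5.2, DESeq2 and GRCm38, and they do not give the annotation or the strandedness. Of 49671 gene rows, 49326 matched GENCODE symbols.

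From these counts, edgeR 4.0.16 (R 4.3.3) was fitted to all 16 libraries with 1 mean per group, TMM scaling, a minimum count of 10 in filterByExpr and robust quasi-likelihood dispersion, which left 16372 genes. Calls had a Benjamini-Hochberg adjusted p under 0.05, and errors of log2 fold changes are standard errors derived from the F statistic. CPM are per 1000000 scaled counts, and library levels use log2 CPM with a prior count of 2. DESeq2 1.42.0, limma 3.58.1 (voom), other scalings, filters and covariates, and leaving out each library were alternatives. The fitting was tested on simulated counts. Intervals of count ratios and the floor of 3 counts cover counting error only.

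The comparison and gene lists were chosen with earlier results of these data known. Named were the called genes, those with the smallest p-values and no overlap, 12 rises and 8 falls of PS19 against wildtype, the largest with a mean log2 CPM above 0, no overlap and a standard gene name, and key list members. Gm5900, Alpk1, 1110002E22Rik, Ppp1r14a, Adcy7, Renbp, Heatr5a, H2-Ob, Ticam2, Cst7, Csf1r, Rpsa, Rassf2 and 5330413P13Rik were named after their values were seen. A few genes that the rule selects are not reported here.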

Additional observations from a re-analysis of the deposited data

Results flagged for a closer look

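Differences in the transgene effect between p16 knockout and p16 wildtype mice were tested with an interaction term, and 1 gene passed. C3ar1 had an interaction log2 fold change of -2.52 (edgeR adjusted p = 0.00248).

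In groups of 4 libraries, 24 of 332 tests found 1 library far from the other 3 by Dixon's test, and chance flags about 1 in 20. The libraries rich in choroid plexus RNA gave several of these values. PS19_p16KO library 3 had 5122 CPM of Ttr, 45.9 CPM of Folr1, 57.7 CPM of Vcam1, a choroid plexus level of 4.50 and a vascular basement membrane level of 0.13, and p16KO library 4 had 2978 CPM of Ttr and 27.6 CPM of Folr1. PS19_p16KO library 4 was high in the activity genes Fos (47.8 CPM) and Arc (250.8 CPM), and also in Adcy7 (6.28 CPM) and Ppp1r14a (16.5 CPM). In p16KO library 2 the smooth muscle genes Myh11 (19.9 CPM) and Tagln (4.40 CPM) and the scavenger receptor gene Stab1 (20.6 CPM) were high. PS19_p16KO library 2 was high in Prox1 (171.6 CPM) and low in Dcn (18.1 CPM).

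The other values stood alone. In p16KO library 1, Lamr1-ps1 was at 0.0 CPM, Alpk1 at 3.33 CPM and Map1b at 1182 CPM, below the other 3 libraries, and Clec7a at 1.75 CPM and the interferon response level at -0.10, above them. Ccdc89 was at 0.82 CPM in p16KO library 3. Cdkn2a was at 0.0 CPM and Fam198b at 5.05 CPM in p16KO library 4.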

How the results depend on the processing

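The genes called in PS19_p16KO against p16KO numbered 7 with DESeq2, 6 with a choroid plexus score as a covariate, and 2 to 5 without 1 library. Prnp and Lamr1-ps1 were called under every alternative run. The interaction calls numbered 86 with DESeq2, 6 with RLE scaling, 5 with the choroid plexus score, 57 with the library-name number as a covariate, 13 with the library-name suffix as a factor, 0 with limma-voom, 20 with no filter on low counts, 2 with no robust dispersion, and 1 to 160 without 1 library. Without both choroid-rich libraries, an alternative chosen after seeing the data, they numbered 3. The calls of PS19 against wildtype numbered 70 when only those groups were fitted and 124 to 438 without 1 library. The median of the response genes was 0.12 when its list came from that fit of only PS19 and wildtype. It was 0.0056 with the library-name suffix as a factor, and 0.02 to 0.07 without 1 library. The causes were not tested, apart from the smaller numbers of libraries in some fits. No called gene changed sign. Of the 34 list medians, which have no test, 23 changed sign under at least 1 alternative and 11 did not. With a replicate block the comparison had 4 calls, Capza1 added, and the interaction 5. Same-numbered libraries of PS19_p16KO and p16KO correlated at 0.0994, 0.223, -0.388 and -0.249, so the numbers were not taken as pairs, and not every library correlated best with its own number. Depth limits Cdkn2a and 4930590L14Rik, which had at most 67 counts in any group. The minimum fold of 1.2 was run for the calls of the comparison and the interaction alone.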
